A study of Mus musculus with 6 samples.

Results

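Genes of 10 proteins that the liver releases into blood plasma were followed across 6 single-colour Agilent microarrays of sorted mouse epithelial cells. The members were chosen by name: apolipoproteins Apoa1, Apoc3, Apoa4 and Apoa2, fibrinogen chains Fgb and Fgg, the carriers Alb, Afp and Ttr, and Ambp, of 27597 genes that have a probe on the array. All 10 had a probe, 9 of them under their own name, and the Alb probe carries the older name Alb1 and was matched to Alb through its RefSeq accession. Together they have 11 probes of 41174, since Apoc3 has 2.

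The samples of interest were thymic epithelial cells of the C57BL/6 strain from the medulla, the central region of the thymus. They were sorted as Epcam+ (a cell adhesion molecule of epithelia), UEA1+ (bound by that lectin), CD45- (lacking the pan-leukocyte surface protein) and Fluorogold- (excluding a dye that enters dead cells). They were compared with C57BL/6 thyroid epithelial cells sorted as Epcam+, CD45- and Fluorogold-. Each group held 3 arrays, called independent replicates by the submitters. Thymic replicates 1 and 2 were pools of 6 thymi and thymic replicate 3 a pool of 2, and every thyroid replicate was a pool of 20 thyroids. The labels give no age, genotype change or treatment for either group, and no liver sample was analysed here.

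Plasma proteins of this kind are made mainly by hepatocytes, under transcription factors of the HNF4, FOXA and C/EBP families among others, and several apolipoproteins are also made by the absorptive cells of the small intestine. Medullary thymic epithelium is known to transcribe many genes of other organs, part of them under the regulator Aire, and so shows the proteins of those organs to maturing T cells. The thyroid makes thyroid hormone, which Ttr, Alb and the thyroxine-binding globulin Serpina7 carry in blood.

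The labels were checked first. Aire, the regulator named above, had signals of 52408, 40666 and 48476 on thymic replicates 1 to 3, against 17.6, 6.09 and 8.95 on thyroid replicates 1 to 3. Tg, the precursor protein of thyroid hormone, ran the other way, reading 223, 183 and 198 on the thymic arrays, against 365774, 283935 and 316763 on the thyroid arrays. Epcam, used in both sorts, was well above background on all arrays (6183, 5168 and 4459 thymic, 2059, 1376 and 2878 thyroid). Of the thyroid follicular markers 10 of 11 were higher in thyroid cells, and of the medullary thymic epithelium markers 10 of 11 were higher in thymic cells. Markers of other cells also differed. The summed signal of 10 endothelial markers was 3.80 to 3.90 times the array's 75th percentile in thymic samples and 456 to 660 times in thyroid samples, and all 10 were higher in thyroid cells. Of the myeloid and dendritic markers 8 of 10 tested were higher in the thymic samples, with sums of 93.8 to 102 in thymic and 1.32 to 2.21 in thyroid samples. Nearly all of the thymic sums came from Lyz2. It read 76994, 64022 and 66819 on the thymic arrays, against 861, 589 and 396 on the thyroid arrays. Of the thymocyte markers 8 of 10 tested were higher in the thymic samples, with sums of 2.34 to 4.48 in thymic and 1.78 to 1.92 in thyroid samples. This fell to 5 of 10 with median centring, with normexp background correction and with quantile normalization. No myeloid Siglech or thymocyte Rag2 signal was above background on any array. Of the other lists, 5 of 5 B-cell, 3 of 4 adipocyte and 1 of 7 fibroblast markers were higher in thymic cells, 2 of 3 parathyroid markers and 4 of 7 ubiquitous controls were higher in thyroid cells, and the 6 C-cell markers split 3 to 3 and the 3 erythroid markers tested 1 to 1. Some of these small counts moved with the scaling. Adipocyte markers were higher in thymic cells for 2 of 4 with median centring, where 1 was higher in thyroid cells, for 2 with normexp and for 1 with quantile normalization. With median centring 0 of 7 fibroblast markers were higher in thymic cells and 7 of 7 ubiquitous controls in thyroid cells, and with normexp 1 of 3 parathyroid markers was higher in thyroid cells. Their part in the results below was not tested. These are bulk samples, in which fewer cells of a type and less RNA per cell cannot be told apart.

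All 10 plasma protein genes were higher in thymic cells than in thyroid cells, at adjusted p under 0.05 in limma (two-sided, adjusted by Benjamini-Hochberg over the 21381 genes tested). Of all the genes tested, 39.2% were higher in thymic cells by the same rule. The median difference of the 10 genes was 7.26 on the log2 scale, against 0.10 over all genes tested. On all 10 genes every thymic array lay above every thyroid array, as on 42.1% of all genes tested. A gene was tested if its probe was well above background, a scanner flag set here at 13 background SDs, on all 3 arrays of at least 1 group. Of the 10 genes, 9 passed this filter through the thymic arrays alone, so a difference in that direction was built into their passing, and only Apoa2 passed in both groups. Without the filter 10 of 10 were also called higher in thymic cells, against 31.3% of all genes. Above background on all 3 thymic arrays and on no thyroid array were 8 of the 10, against 10.8% of the genes tested. A called fold of 32 or more was found for 8 of the 10 (5.53% of the genes tested), of 64 or more for 7 (3.28%) and of 128 or more for 6 (1.78%), taking thyroid signals below background as they stand.

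**Figure D1:**
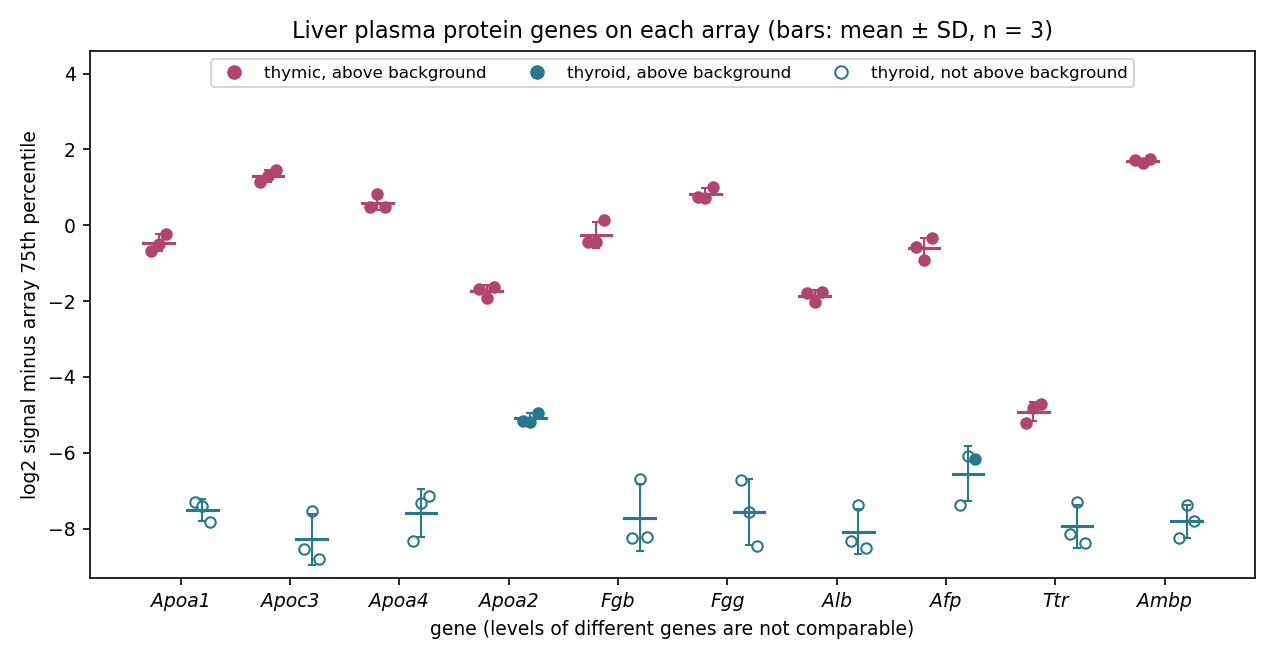
Log2 signal of each plasma protein gene minus the array's 75th percentile (vertical axis), for 3 thymic arrays on the left of each gene and 3 thyroid arrays on the right, with the mean and SD as bars and open points where the probe was not well above background. The thymic means lie between -4.92 (Ttr) and 1.70 (Ambp), all thymic points are above background, and the thyroid points are above background only for Apoa2 and for 1 array of Afp.

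Where a probe was not well above background in thyroid cells, its thyroid level has only an upper limit. The fold is then given as a bound ("at least"), in which each thyroid array is taken at the higher of the probe's own signal and the lowest signal that was well above background on that array. This floor was 10.8, 11.1 and 7.49 on thyroid replicates 1 to 3. With the floor in place, 7 of the 10 genes were called at a fold of 32 or more, against 3.31% of the genes tested. At 64 or more these were 4 (Apoa4, Apoc3, Fgg and Ambp), against 1.87%, and at 128 or more 2 (Apoc3 and Ambp), against 0.945%. The median difference of all 10 was 5.71. Mean levels below are log2 signals relative to the array's 75th percentile, with the SD over 3 arrays. Levels of different genes are not compared, since probes differ in brightness.

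The apolipoproteins coat the lipid particles of blood. Apoc3 is an inhibitor of lipoprotein lipase and slows the clearance of triglyceride-rich particles. Its 2 probes, at chr9:45984265-45984324 and chr9:45984275-45984334 of the mm8 build named in the array files, share 50 bases, in capitals here, so they are not independent readings.
Apoc3 probe with the higher signal: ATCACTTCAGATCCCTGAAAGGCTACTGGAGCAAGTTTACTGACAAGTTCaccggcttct
Apoc3 second probe: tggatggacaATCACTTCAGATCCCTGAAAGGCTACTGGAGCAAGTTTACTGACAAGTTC
The first probe read 1695, 1740.0 and 1856 on thymic replicates 1 to 3, against 2.18, 2.57 and 1.60 on thyroid replicates 1 to 3. The thymic arrays lay close together and no thyroid array was above background. Its level was 1.30 ± 0.16 in thymic cells and -8.29 ± 0.67 in thyroid cells (SD, n = 3 each), a measured difference of 9.59 (SE 0.32, limma adjusted p = 1.10e-06) and a fold of at least 166. The second probe read 1134, 1219 and 1544 on the thymic arrays, against 2.79, 3.03 and 2.14 on the thyroid arrays, a difference of 8.80, so both probes show the same direction.

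Apoa4, an apolipoprotein that the intestine puts on chylomicrons, is read by a probe that the files place at chr9:45992573-45993316 (mm8). That span is longer than the probe itself, whose sequence is shown because it identifies the target better than the span does.
Apoa4 probe: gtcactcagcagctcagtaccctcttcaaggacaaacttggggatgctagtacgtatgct
Its signal was 1066, 1225 and 952 on the thymic arrays, against 2.52, 2.98 and 5.06 on the thyroid arrays. Relative to the 75th percentile, thymic replicate 2 was the highest, as for no other member, and no thyroid array was above background. The level was 0.59 ± 0.19 in thymic cells and -7.59 ± 0.64 in thyroid cells, a difference of 8.18 (SE 0.31, adjusted p = 1.80e-06) and a fold of at least 101.

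Apoa1 is the main protein of high-density lipoprotein and activates the enzyme Lcat. Its probe, at chr9:45980833-45980892 (mm8), is spotted 10 times on the array, with 9 or 10 spots left per array after outliers.
Apoa1 probe: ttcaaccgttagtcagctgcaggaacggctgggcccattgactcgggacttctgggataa
Averaged over its spots, the signal was 483, 497 and 579 on the thymic arrays, against 5.10, 2.82 and 3.11 on the thyroid arrays. Within an array the spots ranged from 454 to 512 on thymic replicate 1, and from 2.52 to 7.72 on thyroid replicate 1. None of the thyroid spots was above background, and the groups did not overlap. The level was -0.46 ± 0.23 in thymic cells and -7.51 ± 0.28 in thyroid cells, a difference of 7.05 (SE 0.19, adjusted p = 5.67e-07) and a fold of at least 48.7.

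Apoa2, the second protein of high-density lipoprotein, was the member measured above background on all 6 arrays, so its fold is a measured one. Its probe lies at chr1:173062402-173062461 (mm8).
Apoa2 probe: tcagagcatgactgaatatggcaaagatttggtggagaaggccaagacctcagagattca
The signal was 243, 185 and 219 on the thymic arrays, against 22.6, 13.1 and 23.2 on the thyroid arrays. Relative to each array's 75th percentile, the thymic arrays stood at -1.74 ± 0.16 and the thyroid arrays at -5.09 ± 0.13, and the groups did not overlap. The difference was 3.36 (SE 0.13, adjusted p = 1.95e-06), or 10.2-fold. The thyroid signals were near the floors of their arrays, most of all on replicate 2 (13.1 against 11.1). The size of the fold moved with the processing. It was 3.16 with normexp, 6.51 with quantile normalization and 7.08 with median centring.

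Fibrinogen, the protein that forms the blood clot, is built of α, β and γ chains encoded by Fga, Fgb and Fgg. Fgb, read by a probe at chr3:83128339-83128398 (mm8), had signals of 566, 512 and 744 on the thymic arrays, against 2.67, 4.59 and 2.40 on the thyroid arrays. Thymic replicate 3 was the highest, and no thyroid array was above background. The level was -0.25 ± 0.34 in thymic cells and -7.72 ± 0.88 in thyroid cells, a difference of 7.46 (SE 0.44, adjusted p = 9.77e-06) and a fold of at least 56.4. Fgg (chr3:83100830-83100889, mm8) had 1285, 1149.6 and 1360.0 on the thymic arrays, against 7.69, 2.52 and 2.04 on the thyroid arrays. Thyroid replicate 1 lay above the other 2 thyroid arrays but was not above background either. The level was 0.82 ± 0.16 in thymic cells and -7.57 ± 0.87 in thyroid cells, a difference of 8.39 (SE 0.41, adjusted p = 4.55e-06) and a fold of at least 119.

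Fga, the gene of the remaining chain, is not among the 10 members. Its probe was above background on no array, so it was not tested. Its signals were 7.54, 12.4 and 6.60 on the thymic arrays, against 3.00, 3.26 and 2.27 on the thyroid arrays. All 3 thymic values were above all 3 thyroid values. In the fit without the filter the difference was 1.46 (adjusted p = 0.0160), with no fold given because both groups were below background. The probe carries the accession of only one of the transcripts that the RefSeq table lists for Fga, and other transcripts were not measured here.

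Albumin (Alb) carries fatty acids and hormones and holds the osmotic pressure of plasma. Its probe, at chr5:91547772-91547831 (mm8), is shown because the files know it only under the older gene name.
Alb probe: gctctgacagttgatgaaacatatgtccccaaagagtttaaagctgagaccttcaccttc
The signal was 225, 172 and 197 on the thymic arrays, against 2.48, 2.84 and 1.95 on the thyroid arrays. The groups lay far apart, and no thyroid array was above background. The level was -1.86 ± 0.14 in thymic cells and -8.08 ± 0.60 in thyroid cells, a difference of 6.22 (SE 0.29, adjusted p = 4.06e-06) and a fold of at least 18.5.

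Afp, α-fetoprotein, is the albumin-like carrier of fetal plasma and is normally low in adult liver. Its probe (chr5:91583955-91584014, mm8) is also spotted 10 times. Averaged over spots, the signal was 516, 372 and 531 on the thymic arrays, against 4.79, 6.98 and 9.89 on the thyroid arrays. All 10 spots were above background on each thymic array, while on the thyroid arrays this held for none of 10, none of 8 and 4 of 8 spots. Afp was thus called above background on 1 of 3 thyroid arrays, replicate 3. The level was -0.61 ± 0.28 in thymic cells and -6.55 ± 0.73 in thyroid cells, a difference of 5.94 (SE 0.37, adjusted p = 1.23e-05), which is 61.3-fold as measured and at least 40.0-fold with the floor on the other thyroid arrays.

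Ttr, transthyretin, carries thyroxine and the retinol-binding protein, and its gene lies on chromosome 18. Its signals were 20.8, 24.8 and 25.6 on the thymic arrays, against 2.84, 3.01 and 2.13 on the thyroid arrays. The thymic values were above background but near the floors of their arrays, which were 9.002, 9.30 and 10.2. The level was -4.92 ± 0.26 in thymic cells and -7.94 ± 0.57 in thyroid cells, a difference of 3.03 (SE 0.30, adjusted p = 1.13e-04) and a fold of at least 2.22. With normexp, another background correction, run with an offset of 50 added to each signal, the difference was 0.32. It was then no longer past the threshold (limma adjusted p = 0.136). The thymic signals of Ttr are smaller than that offset.

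Ambp encodes a precursor that is split into α1-microglobulin, a carrier of heme, and bikunin, a protease inhibitor. The files place its probe at chr4:62629713-62630038 (mm8). The signal was 2521, 2161 and 2277 on the thymic arrays, against 2.63, 2.85 and 3.21 on the thyroid arrays. The thymic arrays differed least here of all 10 genes, and no thyroid array was above background. The level was 1.70 ± 0.06 in thymic cells and -7.81 ± 0.44 in thyroid cells, a difference of 9.51 (SE 0.22, adjusted p = 3.93e-07) and a fold of at least 217.5.

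The spread between arrays was larger on the thyroid side. Thymic SDs of the 10 genes ranged from 0.06 to 0.34 with a median of 0.18, against thyroid SDs of 0.13 to 0.88 with a median of 0.62. Over all genes tested the median SD was 0.12 in thymic cells and 0.22 in thyroid cells. Thyroid arrays on which a probe was below background enter these SDs. Among the thymic arrays, replicate 3, the pool of 2 thymi, had the highest level relative to the 75th percentile for 9 of the 10 genes. Over all genes tested it was the highest for 37%, and replicates 1 and 2 for 31.5% each. The margin of replicate 3 over replicate 1 was small for Alb (-1.77 against -1.78), Apoa2 (-1.63 against -1.67) and Ambp (1.75 against 1.71). The order of the thymic arrays for such genes can depend on the scaling.

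The slides were checked as a batch, since slide 1 held the 3 thymic arrays with thyroid replicate 1, and slide 2 held only thyroid replicates 2 and 3. On slide 1 alone the differences of the 10 genes ran from 3.23 (Ttr) to 9.95 (Ambp), all towards thymic cells. With 1 thyroid array on it, this fit holds no measure of the thyroid spread. Slide 2 holds no thymic array and gives no value of its own, and with the slide as a block the estimates equal those of slide 1. The measured fold moved by over 1.5 times for 3 genes: to 110 from 61.3 for Afp, to 481 from 290.5 for Apoa4 and to 185 from 336 for Fgg. The normexp setting mattered more for size, and in it the background correction and the added offset were not separated. Normexp with an offset of 50 lowered the log2 differences of the 10 genes to between 0.32 (Ttr) and 4.98 (Ambp), and 9 of the 10 stayed past the threshold. Quantile normalization gave 1.72 (Ttr) to 9.13 (Ambp), with all 10 past it.

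**Figure D2:**
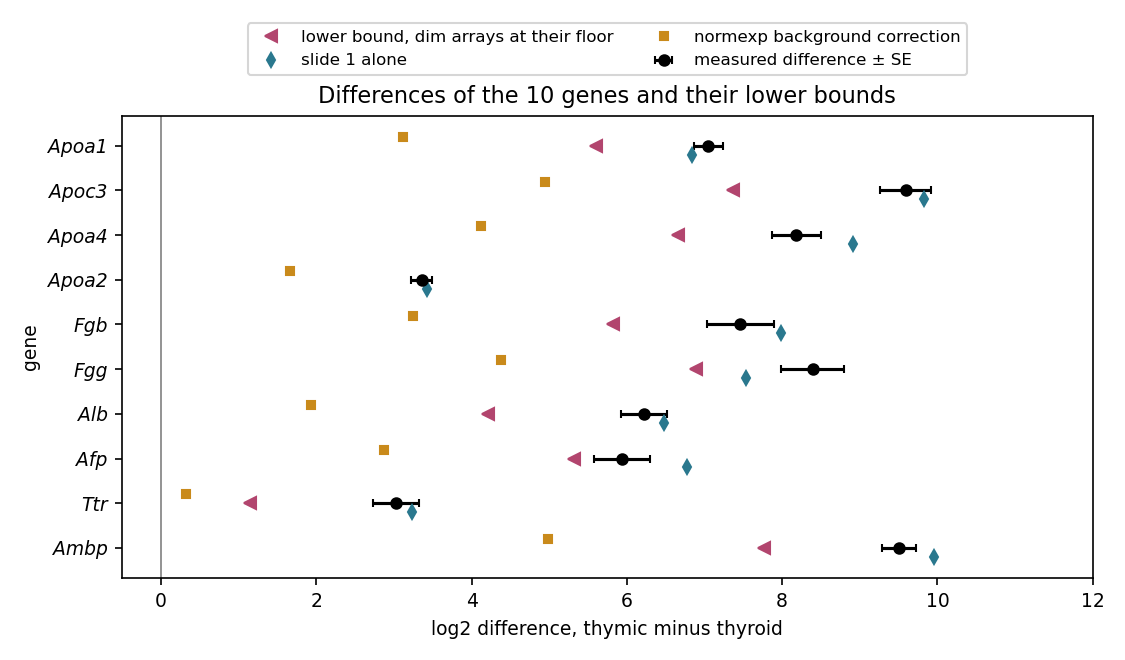
Log2 difference (thymic minus thyroid) of each of the 10 genes as measured with its SE (black), as a bound with dim thyroid arrays at their floor (triangles), on slide 1 alone (diamonds) and after normexp correction (squares). Every point is above 0, from 0.32 for Ttr after normexp to 9.95 for Ambp on slide 1.

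Several of the 10 genes are neighbours, and the genes beside them were looked up in the RefSeq gene order of GRCm38.p6. Alb and Afp sit beside Afm, the vitamin E-binding albumin relative afamin. Afm had 1805, 1153 and 1574 on the thymic arrays against 67.1, 34.7 and 74.9 on the thyroid arrays, a difference of 4.59 (adjusted p = 2.93e-06) or 24.1-fold. A second, dimmer Afm probe read 20.9, 11.6 and 15.3 on the thymic arrays, against 3.02, 31.9 and 1.53 on the thyroid arrays, where replicate 2 lay above all thymic arrays. Its groups overlapped, so the Afm result rests on the first probe. On the other side of Alb, Ankrd17 differed by -0.03 and was not past the threshold, though it stood at -0.56 (adjusted p = 0.00455) with median centring, and Cox18, a mitochondrial assembly factor, was higher in thyroid cells by a difference of -0.39 (thymic minus thyroid, adjusted p = 0.0105), though not past the threshold after quantile normalization (adjusted p = 0.0573). Beyond Afm, Rassf6 was 7.84-fold higher in thymic cells (difference 2.97, adjusted p = 3.07e-05), measured on all 6 arrays. Gc, the vitamin D-binding protein of the same family, had 729, 720.2 and 879 on the thymic arrays, against 15.5, 8.57 and 18.02 on the thyroid arrays, a fold of at least 48.0.

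Apoa1, Apoc3 and Apoa4 form a cluster with Apoa5, which helps lipoprotein lipase. Apoa5 read 74.8, 54.0 and 76.2 on the thymic arrays, against 5.54, 4.93 and 7.72 on the thyroid arrays, so its groups did not overlap. Its difference was 3.36 (adjusted p = 1.82e-05), at least 6.28-fold. The flanking genes differed less. Sik3, a kinase, differed by -0.07, Bud13, a splicing factor, by 0.09 and Zpr1, a zinc finger protein, by -0.20 (adjusted p = 0.280), and these 3 were not past the threshold. With median centring Bud13 was at -0.44 (adjusted p = 0.0257) and Zpr1 at -0.73 (adjusted p = 0.00581), both past it. Beyond Sik3, Pafah1b2 (-0.41, adjusted p = 0.0183) and Sidt2 (-0.34, adjusted p = 0.0218) were higher in thyroid cells, though Sidt2 was not past the threshold with normexp (adjusted p = 0.0682) or quantile normalization (adjusted p = 0.945). Beside the fibrinogen genes, Plrg1, a splicing factor, differed by -0.42 (adjusted p = 0.0139) and Lrat, the enzyme that stores retinol as an ester, by -1.19 (adjusted p = 0.0166), both higher in thyroid cells, though Plrg1 was not past the threshold after quantile normalization. Near Ambp, Orm1, an acute-phase plasma glycoprotein, had 935, 917 and 949 on the thymic arrays against 4.53, 2.39 and 2.69 on the thyroid arrays, at least 87.7-fold higher in thymic cells. Kif12 (at least 22.9-fold), Col27a1 (at least 20.8-fold) and Zfp618 (2.38-fold), also near Ambp, were higher in thymic cells. So were Dsg4 (at least 12.6-fold), Dsg3 (at least 5.10-fold), Dsg2 (4.31-fold) and B4galt6 (7.71-fold) beside Ttr. Rgs3 near Ambp and Trappc8 and Rnf125 near Ttr were not past the threshold. Of the 37 neighbours within 3 protein-coding genes of a member, 35 were on the array and 31 were tested. Of these, 14 were higher in thymic cells, 9 higher in thyroid cells and 8 not past the threshold, against 39.2% and 30.6% of all genes tested in each direction.

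**Figure D3:**
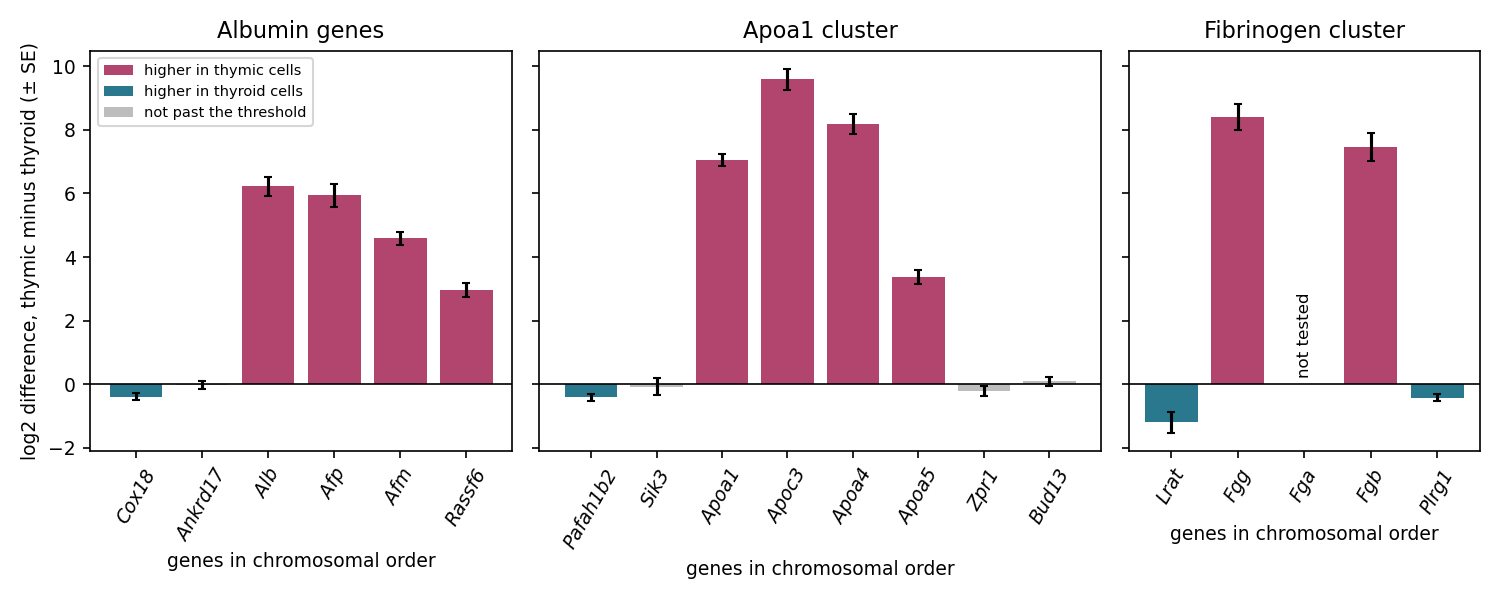
Log2 difference (thymic minus thyroid, bars with SE) of genes in chromosomal order around the albumin genes, the Apoa1 cluster and the fibrinogen cluster. Members stand between 5.94 (Afp) and 9.59 (Apoc3), Rassf6 beyond Afm at 2.97, the flanking genes Cox18, Ankrd17, Pafah1b2, Sik3, Zpr1, Bud13, Lrat and Plrg1 between -1.19 and 0.09, and Fga between Fgg and Fgb was not tested. Neighbours of Apoa2, Ttr and Ambp are not drawn.

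Promoters were searched because all 10 genes were higher in thymic cells, and shared regulation was not tested. RefSeq sequences of GRCm38.p6 were used, the 250 bases before each annotated start, on both strands. Of the members, 8 have such an entry that was used, and Apoc3 and Ttr were not searched. The C/EBP core TTGCNNAA stands in 4 of these 8 (Alb, Afp, Apoa2 and Fgb), against 9.56% of 32851 promoter windows of the same length. The windows of Alb, Afp and Fgb are shown 5′ to 3′ on the gene's strand with the match in capitals, which in Alb is on the opposite strand and so reads as the reverse complement.
Alb, chr5:90460620-90460869, plus strand: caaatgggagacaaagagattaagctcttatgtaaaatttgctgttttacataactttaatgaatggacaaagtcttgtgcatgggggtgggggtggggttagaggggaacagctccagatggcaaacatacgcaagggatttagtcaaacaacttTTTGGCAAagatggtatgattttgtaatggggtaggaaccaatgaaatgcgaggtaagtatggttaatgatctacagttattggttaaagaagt
Afp, chr5:90490464-90490713, plus strand: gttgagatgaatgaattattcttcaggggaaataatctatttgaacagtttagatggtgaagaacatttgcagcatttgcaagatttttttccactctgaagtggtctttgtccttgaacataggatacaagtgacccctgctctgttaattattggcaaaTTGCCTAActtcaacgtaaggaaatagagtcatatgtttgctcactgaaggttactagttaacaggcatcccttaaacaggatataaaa
Fgb, chr3:83049864-83050113, minus strand: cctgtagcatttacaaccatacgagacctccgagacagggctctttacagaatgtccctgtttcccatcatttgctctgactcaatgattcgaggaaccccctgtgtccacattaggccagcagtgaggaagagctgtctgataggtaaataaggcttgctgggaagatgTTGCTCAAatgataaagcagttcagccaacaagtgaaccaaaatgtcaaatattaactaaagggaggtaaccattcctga
The base of the match nearest the start lies 87 bases before it in Alb, 82 in Afp and 73 in Fgb. CCAAT was in 4 of the 8 (Alb, Afp, Apoa2 and Ambp) against 33.8% of windows. The HNF4 motif CAAAGTCCA was in none of the 8 and in 0.384% of windows, and TATAAA in 2 (Afp and Apoa2) against 12.4%. Other motifs were also searched and are not reported here. A match describes letters in a window, and Apoa2 contributed 2 annotated starts.

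Transcription factors of hepatocytes and gut were measured on the same arrays. Of 21 hepatocyte and intestinal transcription factors tested, 16 were higher in thymic cells and 2 in thyroid cells, with a median difference of 2.63. Some passed the filter through the thymic arrays alone, as in the lists below. Of 9 factors measured on all 6 arrays, 5 were higher in thymic cells and 2 in thyroid cells. Of all 17071 genes so measured, these were 5014 and 6434. Cdx2 (at least 21.2-fold) and Isx (at least 14.01-fold), both intestinal homeobox factors, were higher in thymic cells. Nr5a2, a nuclear receptor of liver and gut, was higher in thyroid cells (14.97-fold, with 100.3, 81.2 and 107 on the thymic and 2057, 1038 and 1022 on the thyroid arrays). Hnf4a read 46.7, 43.0 and 37.1 on its brightest probe on the thymic arrays, against 2.41, 2.74 and 1.78 on the thyroid arrays, at least 3.96-fold. Its other 2 probes were near background in both groups. For Hnf4g, the intestinal relative, the thymic excess was at least 27.9-fold. No link from any factor to a plasma protein gene was tested.

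Other plasma protein genes were counted by list. Of 16 other apolipoproteins tested, 12 were higher in thymic cells and 2 in thyroid cells (median difference 2.52). Apoc2, the activator of lipoprotein lipase, had 10263, 9022 and 11834 on the thymic arrays, against 24.9, 23.6 and 35.6 on the thyroid arrays, a measured 339-fold. Its neighbours in the Apoe cluster differed less. Apoc4 was at least 9.72-fold higher, Apoc1 2.09-fold (adjusted p = 0.00421) and Apoe, the ligand of lipoprotein receptors, 2.07-fold (adjusted p = 0.0151), although Apoe was not past the threshold with median centring (adjusted p = 0.147). Saa4, the constitutive serum amyloid A (at least 35.1-fold) and Apoh, which binds phospholipid (at least 21.8-fold), were higher in thymic cells. Apon (at least 10.1-fold) and Lcat, the enzyme that esterifies cholesterol (2.68-fold), were higher in thyroid cells.

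Of 26 other plasma carriers and inhibitors tested, 23 were higher in thymic cells and 2 in thyroid cells (median 3.72). Serpina7 read 1039.5, 1129 and 1192 on the thymic arrays, against 3.07, 2.83 and 2.03 on the thyroid arrays, at least 105.1-fold. The 3 plasma carriers of thyroid hormone, Ttr, Alb and Serpina7, were thus all higher in thymic cells, none of them above background on a thyroid array. C4bp, a complement inhibitor, exceeded its thyroid level at least 101-fold. Lrg1 (21.3-fold) and the copper carrier Cp (2.31-fold) were higher in thyroid cells. Of 19 coagulation and fibrinolysis genes tested, 15 were higher in thymic cells and 1 in thyroid cells (median 1.95). After normexp these were 8 and 2, and after quantile normalization 11 and 4. Of all 21381 genes tested, normexp gave 6564 and 6128, and quantile normalization 7293 and 7901. F2, prothrombin, had 850.2, 863 and 825 on the thymic arrays, against 23.9, 13.9 and 16.9 on the thyroid arrays, a measured 43.2-fold. F13a1, the clot-stabilising transglutaminase subunit, exceeded its thyroid level at least 24.6-fold and F12 at least 8.03-fold, and Pros1, protein S, was 3.04-fold higher in thyroid cells. Of the 6 partners of bikunin, 5 were higher in thymic cells, including heavy chains Itih3 (at least 25.2-fold) and Itih2 (at least 8.495-fold) and Tnfaip6, which transfers those chains (8.02-fold). Itih5 was 38.4-fold higher in thyroid cells, with 352, 459 and 537 on the thymic arrays, against 23300.2, 11169 and 14086 on the thyroid arrays.

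**Figure D4:**
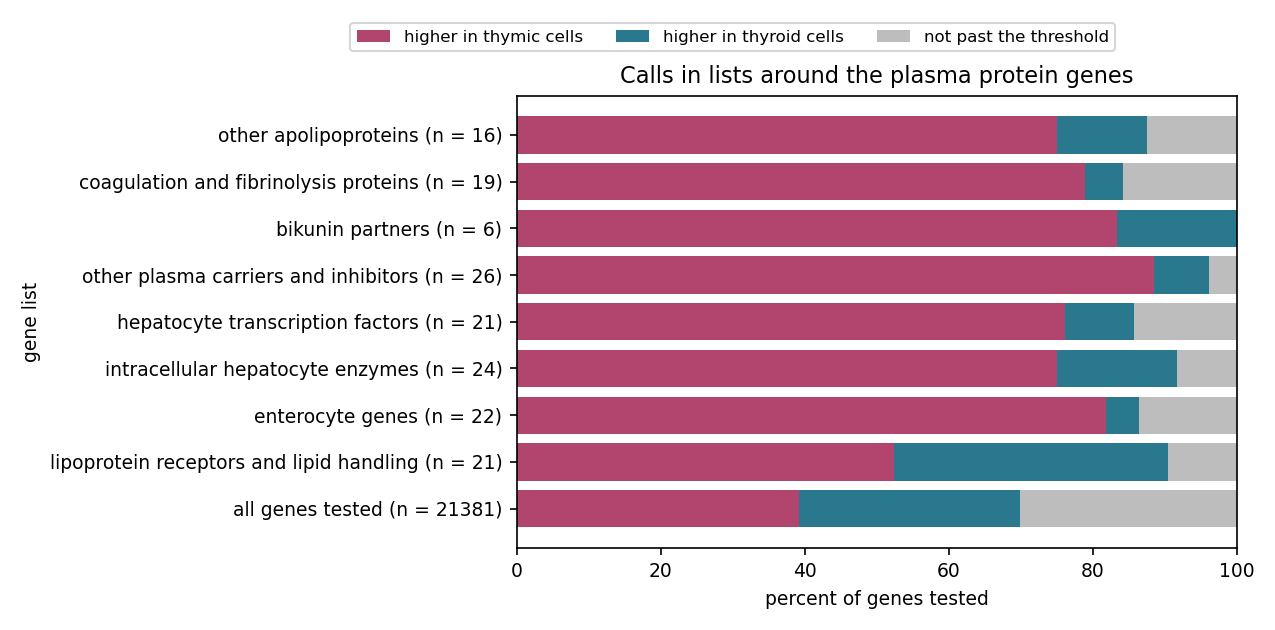
Percent of the tested genes of each list (horizontal axis, number tested in brackets) that were higher in thymic cells, higher in thyroid cells or not past the threshold. All genes tested stand at the bottom with 39.2% and 30.6%. Each list has a larger thymic share, and of the 21 lipoprotein receptor and lipid genes 11 had the higher level in thymic cells and 8 in thyroid cells.

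Genes that hepatocytes use inside the cell were set beside the secreted ones. Of 28 such genes 27 were on the array and 24 were tested, 18 higher in thymic cells and 4 higher in thyroid cells (median 3.19). Their summed signal was 22.1 to 25.6 times the 75th percentile on thymic arrays and 25.8 to 43.4 times on thyroid arrays. Such a sum weighs bright probes most. Most of the thyroid sums came from Asgr1 and Fbp1, given below, so the sums do not follow the counts. Gys2, liver glycogen synthase, was among those higher in thymic cells, at least 39.6-fold. Otc of the urea cycle and Cyp7a1 and Cyp8b1 of bile acid synthesis were above background on no thymic array. Asgr1, a chain of the hepatocyte asialoglycoprotein receptor, ran the other way, with 161, 129 and 147 on the thymic arrays, against 11920.5, 9596 and 18292 on the thyroid arrays, 97.3-fold higher in thyroid cells. Fbp1 of gluconeogenesis (11.4-fold) and the bile acid transporter Slc10a1 (at least 3.61-fold) were also higher in thyroid cells.

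Of 22 enterocyte genes tested, 18 were higher in thymic cells and 1 in thyroid cells (median 4.05), and their summed signal was 61.3 to 68.8 times the 75th percentile on thymic arrays and 7.76 to 9.45 times on thyroid arrays. Fabp2, the intestinal fatty acid-binding protein, exceeded its thyroid level at least 117-fold, with 2 of 3 thyroid arrays above background, and Mogat2, of intestinal fat absorption, at least 70.0-fold. Enpep, a brush-border peptidase, was 8.49-fold higher in thyroid cells. The part of hepatocyte or enterocyte transcripts in the plasma protein results was not tested.

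Receptors and lipid-handling genes that act on the apolipoproteins were divided, 11 of 21 higher in thymic cells and 8 higher in thyroid cells (median 0.78). Scarb1, the receptor for high-density lipoprotein, had 272, 228 and 244 on the thymic arrays, against 36918, 16450.4 and 15031 on the thyroid arrays, 93.0-fold higher in thyroid cells. Gpihbp1, the anchor of lipoprotein lipase on endothelium, was 78.9-fold and Lrp2, an endocytic receptor, 10.1-fold higher there. The endothelial markers given above were also higher in thyroid cells, and their part in the Gpihbp1 difference was not tested. Lipc, hepatic lipase (at least 9.92-fold), and Amn, a partner of the apolipoprotein A1 receptor cubilin (17.1-fold), were higher in thymic cells.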

How the data were processed

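RNA of 3 thymic and 3 thyroid samples was extracted with Trizol and Cy3-labelled, per the labels' protocols. The deposited scanner files hold, per the file headers, each spot's intensity from Agilent Feature Extraction 10.5.1.1, as a processed signal, background-subtracted with a surrogate for dim spots. The authors also deposited a value table, a linear ratio that equals the processed signal divided by the array's median. No column was left unused.

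Control spots were dropped, as were 67 to 151 outlier spots an array, and the spots of a probe averaged, a flag being set where at least 50% of its spots had it. Values were log2 signal minus each array's 75th percentile over non-control spots. No spot was saturated. Each gene took the values of whichever tested probe had the highest mean. Names came from the mouse RefSeq table (24375 probes by accession, 6301 by symbol, 2426 by a unique older symbol, 8072 kept as in the file). That table's build differs from mm8, so exon and UTR positions were not assigned here.

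Thymic minus thyroid was fitted in limma 3.58.1 under R 4.3.3 (lmFit, eBayes, no covariate). The number of arrays limits the precision, and p-values measure the spread between these pools. The fit was tested on simulated data. Alternatives were background correction, scaling, filter, probe choice, slide, replicate block, variance model and leaving out each replicate. Setting dim values to the floor was chosen after seeing the data. The members and lists were chosen with earlier results of these data known. Named were all members, their locus and family partners, up to 3 called genes per direction and list with the largest differences, Aire, Tg, Epcam and the 5 nearest profiles. Hnf4a, Hnf4g, Orm1 among the neighbours and the other flanking genes were named after their values were seen. Some genes that the rule takes are not reported here. Marker lists of other cells are given by counts. Plots used Python 3.11.15 and matplotlib 3.10.9.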

Additional observations from a re-analysis of the deposited data

How the results depend on the processing

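All 10 genes were called higher in thymic cells under each alternative that tested all 10, except that normexp called 9, losing Ttr (0.32, adjusted p = 0.136). Slide 1 alone is left out of this statement, since it holds 1 thyroid array. Restricting the test to probes measured on all 6 arrays, 1 of the 10 could be tested, Apoa2, and it was called. Without each replicate in turn the count was 10 to 10, and no fold moved by over 1.5 times. Of the 242 genes tested on the other lists, 155 were higher in thymic cells and 53 in thyroid cells. Leaving out a replicate gave 149 to 154 and 49 to 57, and the filter on all 6 arrays left 154 tested, with 75 and 48. That filter removes the genes measured in a single group. By list it left 7 of 9 other apolipoproteins, 10 of 13 other carriers and inhibitors and 8 of 12 coagulation genes higher in thymic cells. For the other hepatocyte genes this was 6 of 11, and for enterocyte genes 8 of 12. Higher in thyroid cells were 1, 2, 1, 3 and 1 of them, in the order given. Of all 17071 genes that this filter left, 5014 were higher in thymic cells and 6434 in thyroid cells. Median centring moved the median difference of all genes to -0.43 and the members' range to between 2.50 (Ttr) and 9.06 (Apoc3). The share of all calls that were higher in thymic cells was 56.1% as reported, 43.8% with the filter on all 6 arrays, 48% with quantile normalization, 35.6% with median centring and 35.8% with the deposited table. With the replicate number as a block the counts were 10 for the members and 152 and 52 for the other lists. Same-numbered samples did not deviate together (r = 0.007, -0.067 and -0.054 over genes), so the numbers were not taken as pairs. Arrays on which a probe was below background limit its fold to a bound.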

Other observations

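Profiles were compared for 16008 genes above background on all thymic arrays. Members, Gm and Rik symbols, and probes whose name was kept as in the file were left out. Those whose centred profile over the 6 arrays lay nearest to the members' median profile (Euclidean distance on the log2 scale) were Speer4d (0.371), Cyp2d34 (0.375), Gkn2 (0.380), Ccl25 (0.390) and Dnah5 (0.397). Gkn2 is a secreted protein of the stomach, Ccl25 a chemokine made by thymic epithelium and small intestine, and Dnah5 a motor protein of cilia. Ccl25 was measured in both groups, at 6.72 in thymic cells and -0.58 in thyroid cells (mean log2 level relative to the 75th percentile), a difference of 7.30 (limma adjusted p = 1.29e-06, n = 3 each). The other 4 had thyroid means between -8.18 (Gkn2) and -8.06 (Cyp2d34). With 6 arrays in 2 groups, such nearness describes the size of the difference and the order of the arrays.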
